A study of Mus musculus with 23 samples.

Results

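Gata4, Gata6, Sox17, Foxa2 and Dab2 are 5 genes used to recognise endoderm. They were followed by their symbols on the array, which carried 8 probes for them, each annotated to 1 gene: 3 for Gata6 (probes 2646, 11678 and 15983), 2 for Gata4 (2228 and 11500) and 1 each for Sox17 (20461), Foxa2 (8110) and Dab2 (7727). All 5 genes were found among the 8683 genes measured, and none of their probes was lost to a filter. The cells were A404, derived as 1 clone from mouse P19 embryonal carcinoma, sampled at 4 points on a route to smooth muscle. The line is known to hold a transgene in which the Acta2 promoter drives resistance to puromycin, so the drug selects cells with that promoter active. All 4 groups share the clone and the transgene. Control cells (6 arrays) were undifferentiated. RA48 cells (5 arrays) had been started at about 30% confluence and kept for 48 h in 1 µmol/L all-trans retinoic acid, and RA96 cells (6 arrays) for 96 h. Puromycin cells (6 arrays) had 96 h of the same retinoic acid dose followed by puromycin for 48 h. Whether retinoic acid was kept on during selection is not given. Each array compared RNA from 5 to 6 plates of A404 cells, labelled red, with a green-labelled pool of whole embryos of day 17.5, which held no sample of any group. Values were read as log2 ratios of A404 over embryo RNA, though the sources used here do not state base, centring or direction. On that reading 0 means the level of the embryo pool for that probe, and levels of different probes are not comparable.

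GATA4 and GATA6 are zinc finger transcription factors that bind GATA motifs and act early in primitive endoderm, the lineage that gives parietal and visceral endoderm. Both also act outside endoderm, GATA4 in the heart and GATA6 in heart and vascular smooth muscle. SOX17, a high mobility group box factor, and FOXA2, a forkhead factor that opens closed chromatin, act in definitive and extraembryonic endoderm, and DAB2 is a clathrin adaptor that carries receptors such as megalin into cells and is abundant in extraembryonic endoderm. Embryonal carcinoma cells are known to form extraembryonic endoderm, nerve or muscle under retinoic acid, depending on line, dose and culture. The comparisons below ask whether the 5 genes moved as a group or whether Gata6 moved without the others.

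Nothing in the labels states that replicates were grown separately. The p-values thus reflect how far these arrays spread, which may be technical. Changes are log2 differences between group means ± SE from 1 limma fit of 17863 rows over all 23 arrays. A change is called at an adjusted p under 0.05, Benjamini-Hochberg over all rows. Each group's arrays split into 2 sets, 11 arrays in the first and 12 in the second, by the sign of the first principal component of within-group deviations. That component held 48.9% of the within-group variance. The labels name no batch, but the split followed the replicate number for 22 of 23 arrays: replicates 1 to 3 lay in the first set and later numbers in the second, except RA96 replicate 2. As the sets were found from the spread of these same arrays, a block on them favours a smaller spread. P-values with the set as a block may thus be too small. The sets were uneven in RA48 (3 and 2 arrays) and RA96 (2 and 4). For the 5 genes the values within each set thus stand beside most changes where they alter the call or differ by over 1.5 times. Alb, the liver albumin gene of the embryo pool, marked the sets: its log2 ratio was -6.23 to -5.24 on the first-set arrays and -3.75 to -2.65 on the second-set arrays, with group means of -4.37 to -4.12. No group of arrays overlapped another in Acta2, the smooth muscle actin gene, whose mean log2 ratio climbed from -4.90 ± 0.65 in Control (SD over 6 arrays) to -0.34 ± 0.14 (5 arrays of RA48), 1.87 ± 0.13 (6 of RA96) and 2.40 ± 0.26 (6 of Puromycin). The RNA came from whole plates, in which fewer cells of a type and less RNA per cell cannot be told apart. RA48 versus Control, RA96 versus Control and Puromycin versus Control share the Control arrays.

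Across the 4 groups, 4 of the 5 genes differed in the limma F test, against 52.7% of all rows: Gata6 (adjusted p = 3.46e-11), Dab2 (3e-09), Sox17 (2.34e-06) and Foxa2 (1.4e-05). Gata4 did not pass it (adjusted p = 0.207), though it did with the array set as a block (0.00749). In RA48 versus Control 4 of 5 were called, all higher, against 26.0% of rows called in either direction and 11.9% called higher. RA96 versus RA48 gave 2 called higher and 1 lower (19.8% of rows called, 10.4% higher and 9.42% lower), and Puromycin versus RA96 gave 1 called higher (5.27% of rows called, 3.17% higher). Over the whole course, 3 of 5 were higher in RA96 than in Control (46.1% of rows called, 20.1% higher) and 3 in Puromycin than in Control (46.3% and 19.8%), Gata6, Sox17 and Dab2 both times. The courses were of 4 kinds: Gata6 and Dab2 rose first and stayed up, Sox17 was called higher in RA48 and again in Puromycin, Foxa2 was up at 48 h only, and Gata4 did not pass the test.

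**Figure D1:**
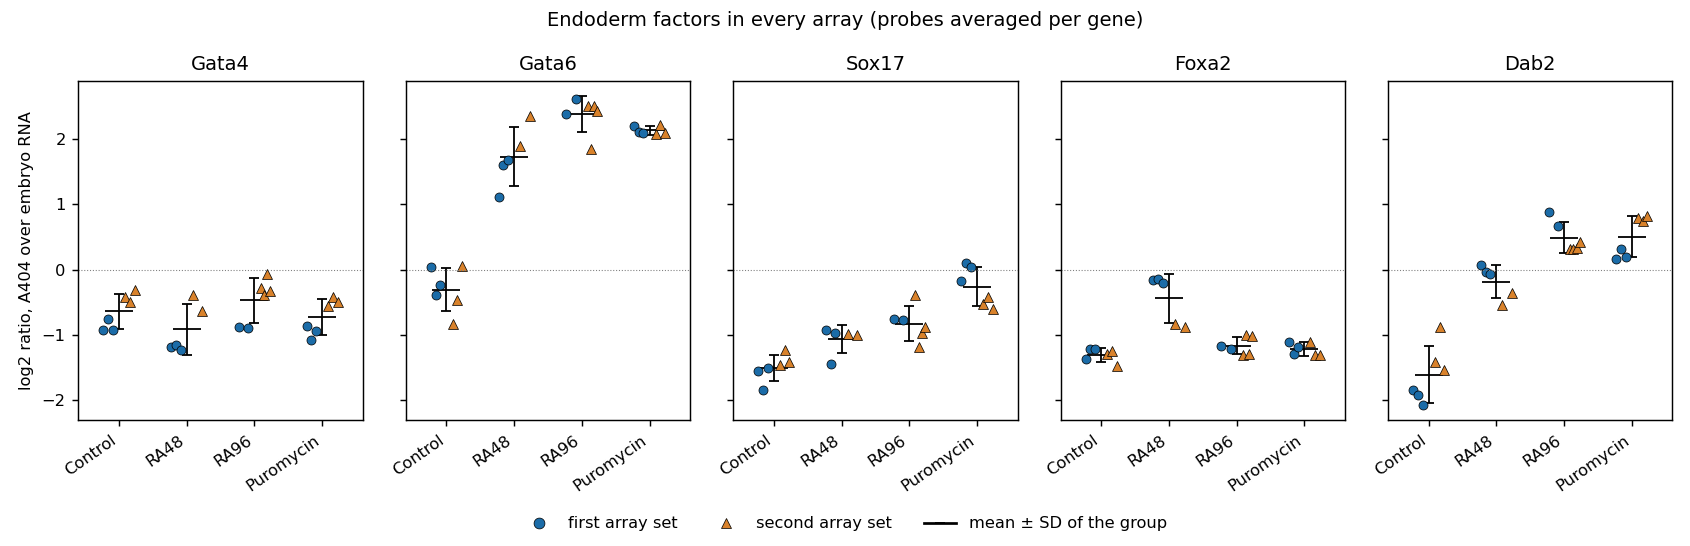
Log2 ratio of A404 over embryo RNA (y axis) for Gata4, Gata6, Sox17, Foxa2 and Dab2 in each of the 23 arrays, by group (x axis), with first-set arrays as circles, second-set arrays as triangles, and bars for the group mean ± SD. Gata6 and Dab2 arrays of the 3 treated groups lie above every Control array, Foxa2 arrays do so at RA48 only, and the Gata4 groups overlap.

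Gata6 was above Control in every treated group. Its log2 ratio, averaged over 3 probes, ran from -0.83 to 0.05 in Control with a median of -0.31. The 5 RA48 arrays gave 1.12, 1.61, 1.68, 1.89 and 2.36, the RA96 arrays 1.85 to 2.61 with a median of 2.46, and the Puromycin arrays 2.08 to 2.22 with a median of 2.10. Every treated array was above every Control array, RA48 and RA96 overlapped, and the Puromycin arrays lay inside the RA96 range. Gata6 rose by 2.04 ± 0.18 from Control to RA48, a 4.1-fold change (adjusted p = 9.87e-09), and was the 87th largest rise among 8683 genes. The rise was 1.67 in the first array set and 2.54 in the second, and of the 3 probes only 11678 rose more in the second. Gata6 rose again by 0.65 ± 0.18 from RA48 to RA96 (adjusted p = 0.0143). That second rise was 1.03 ± 0.17 within the first array set (adjusted p = 0.00134) and 0.20 ± 0.25 within the second (0.65), and it missed the threshold without RA48 replicate 1 (0.50, adjusted p = 0.0599). Puromycin minus RA96 was -0.25 ± 0.17 (adjusted p = 0.516), with -0.37 in the first set and -0.19 in the second. Over the whole course Gata6 was up by 2.44 ± 0.17, a 5.41-fold change (adjusted p = 8.58e-11), by 2.33 in the first set and 2.54 in the second.

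The 3 Gata6 probes differed in size and timing. Probe 2646 went from -1.73 to -1.13 in Control to 2.43, 2.64, 2.64, 2.08 and 2.18 in RA48, a rise of 3.84 ± 0.15 (14.3-fold, adjusted p = 1.12e-14). Probe 15983 went from -0.23 to 0.24 in Control to 1.22, 1.38, 1.37, 0.93 and 1.12, a rise of 1.15 ± 0.09 (2.22-fold, adjusted p = 1.95e-09). Neither overlapped Control in any treated group, and neither changed further from RA48 to RA96 by the test (0.31 ± 0.15, adjusted p = 0.139, and -0.01 ± 0.09, 0.963). Probe 11678 was spread far more widely in RA48, with -0.28, 0.82 and 1.04 on the first-set arrays and 2.64 and 3.80 on the second-set arrays. Its change from Control to RA48 was 1.12 ± 0.53 (adjusted p = 0.133) and its change from RA48 to RA96 1.64 ± 0.53 (adjusted p = 0.0328). Its means in Control, RA48 and RA96 were 0.71, 0.53 and 3.21 in the first set and 0.25, 3.22 and 3.27 in the second. From Control to RA48, probe 2646 went from -1.47 to 2.57 in the first set and from -1.42 to 2.13 in the second. Probe 15983 went from 0.17 to 1.32 and from -0.07 to 1.03. So 2 of 3 probes were called in RA48 versus Control, where 26.8% of all 20280 probes were, and over all arrays 1 of 3, probe 11678, was called in RA96 versus RA48, where 20.0% were. In Puromycin versus Control all 3 were called, with 46.5% of probes called: 3.99 ± 0.14 for probe 2646, 2.25 ± 0.51 for 11678 and 1.07 ± 0.09 for 15983. Which transcript each probe reads was not analysed here.

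Gata4, the close relative of Gata6 that often acts beside it in primitive endoderm and heart, stayed below the embryo pool in the mean of its 2 probes. Control arrays ran from -0.93 to -0.31 (median -0.62), the RA48 arrays gave -1.18, -1.15, -1.23, -0.38 and -0.63, RA96 arrays ran from -0.89 to -0.06 (median -0.36) and Puromycin arrays from -1.08 to -0.41 (median -0.71). All 4 groups overlapped, and in every group the first-set arrays were lower than the second-set arrays. RA48 minus Control was -0.28 ± 0.19 (adjusted p = 0.313), RA96 minus RA48 0.44 ± 0.19 (0.0962) and Puromycin minus Control -0.09 ± 0.18 (0.711). With the array set as a block the spread shrank, and how far the way the sets were found made it do so was not tested. RA48 minus Control was then -0.22 ± 0.07 (adjusted p = 0.0184) and RA96 minus RA48 0.30 ± 0.07 (0.00474), 1.17-fold and 1.23-fold changes. Both were also called in the first set alone (-0.32, adjusted p = 0.0113, and 0.30, 0.0264) and not in the second (-0.10, 0.519, and 0.24, 0.174). Its probes differed in level and direction. Group means of probe 2228 lay above the embryo pool, at 0.19 in Control, 0.31 in RA48, 0.60 in RA96 and 0.53 in Puromycin. Those of probe 11500 were -1.46, -2.14, -1.54 and -1.98. From Control to RA96, probe 2228 rose by 0.41 (limma adjusted p = 0.018), where 9402 of 20280 probes were called, and probe 11500 changed by -0.08 (0.895). Probe 2228 was 0.34 ± 0.14 higher in Puromycin than in Control (adjusted p = 0.0452), not called in the second set alone (0.37, 0.118). Probe 11500 gave -0.52 ± 0.40 (adjusted p = 0.296) over all arrays and was called lower within each set (-0.50, 0.00148, and -0.54, 0.0151).

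**Figure D2:**
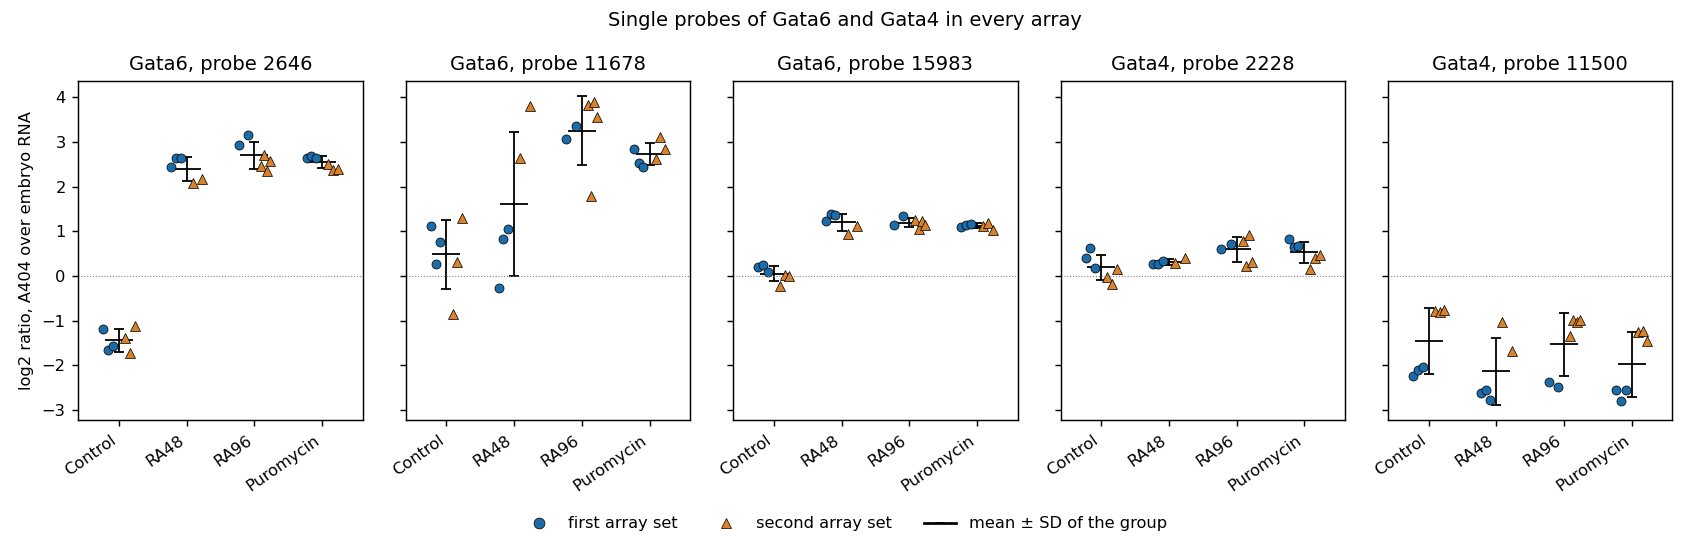
Log2 ratio of A404 over embryo RNA (y axis) for the 3 Gata6 probes and the 2 Gata4 probes in every array, by group (x axis), with array sets as circles and triangles and bars for the group mean ± SD. Gata6 probes 2646 and 15983 separate Control from the treated groups, probe 11678 spreads from -0.28 to 3.80 in RA48, and Gata4 probe 11500 splits by array set in each group.

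Foxa2 was higher at 48 h and back near the Control level at 96 h. Control arrays ran from -1.48 to -1.21 with a median of -1.26. The RA48 arrays gave -0.15, -0.14 and -0.21 in the first set and -0.83 and -0.87 in the second. RA96 arrays ran from -1.30 to -1.0 (median -1.18) and Puromycin arrays from -1.31 to -1.10 (median -1.24). The RA48 arrays lay above those of every other group, and those other groups overlapped. Foxa2 rose by 0.86 ± 0.12 to RA48 (1.82-fold, adjusted p = 1.02e-05) and fell by 0.72 ± 0.12 to RA96 (1.65-fold, adjusted p = 0.000312). Both changes were larger in the first set (1.10 up and -1.02 down) than in the second (0.49 and -0.30), and the fall was not called in the second set alone (adjusted p = 0.118). Puromycin minus Control was 0.09 ± 0.12 (adjusted p = 0.579), so a Foxa2 level above Control was found only in RA48 among the 3 treated groups by these tests.

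Sox17 moved in smaller steps and was highest in Puromycin. Control arrays ran from -1.84 to -1.23 (median -1.48). The RA48 arrays gave -0.92, -1.45, -0.97, -0.98 and -1.0, RA96 arrays ran from -1.18 to -0.38 (median -0.82), and Puromycin arrays from -0.60 to 0.11 (median -0.29). RA48 replicate 2 lay in the Control range, RA96 lay above Control without overlap, and the first-set Puromycin arrays (-0.17, 0.11 and 0.04) lay above every RA96 array while the second-set ones lay inside the RA96 range. Sox17 rose by 0.44 ± 0.15 to RA48 (1.35-fold, adjusted p = 0.0338), a call that was lost when any of 7 arrays was left out (Control 1, 2 or 3, or RA48 1, 3, 4 or 5, with the change between 0.37 and 0.53 and adjusted p up to 0.081). It was 0.52 in the first set (adjusted p = 0.0199) and 0.38 in the second (0.138). RA96 minus RA48 was 0.24 ± 0.15 (adjusted p = 0.277), with 0.35 in the first set and 0.14 in the second. Sox17 rose by 0.56 ± 0.14 from RA96 to Puromycin (1.48-fold, adjusted p = 0.0205), by 0.76 in the first set and 0.34 in the second (adjusted p = 0.216). That call was lost without RA96 replicate 4 or 5 or Puromycin replicate 2 or 3 (changes of 0.49 to 0.65, adjusted p up to 0.0655). From Control to Puromycin it rose by 1.24 ± 0.14 (2.36-fold, adjusted p = 2.67e-07), by 1.62 in the first set and 0.85 in the second, and no array of the 2 groups overlapped. Its Puromycin mean of -0.26 ± 0.30 (SD, n = 6) was close to the embryo pool.

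Dab2 followed Gata6 in outline. Control arrays ran from -2.07 to -0.87 (median -1.68). The RA48 arrays gave 0.08, -0.03, -0.07, -0.54 and -0.35, RA96 arrays ran from 0.31 to 0.89 (median 0.38), and Puromycin arrays from 0.17 to 0.82 (median 0.53). Control, RA48 and RA96 were separate steps with no overlap, while Puromycin and RA96 overlapped. Dab2 rose by 1.42 ± 0.19 to RA48 (2.68-fold, adjusted p = 4.13e-06), by 1.94 in the first set and 0.82 in the second. It rose by a further 0.67 ± 0.19 to RA96 (1.59-fold, adjusted p = 0.0156), by 0.79 in each set. Puromycin minus RA96 was 0.02 ± 0.18 (adjusted p = 0.981) over all arrays, and the sets went opposite ways, with -0.55 ± 0.10 in the first (adjusted p = 0.00938) and 0.44 ± 0.13 in the second (0.069). Whether the sets differed in this change was not tested. Dab2 was up by 2.11 ± 0.18 over the whole course (4.33-fold, adjusted p = 2.26e-09), by 2.17 and 2.06 in the sets.

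Across the 5 genes, RA48 did not overlap Control for 3 (18.1% of all rows), nor RA96 for 2 (10.3%). Puromycin overlapped RA96 for all 5 (no overlap in 4.60% of rows). Against Control, RA96 did not overlap for 3 (26.0%) and Puromycin for 3 (28.3%).

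**Figure D3:**
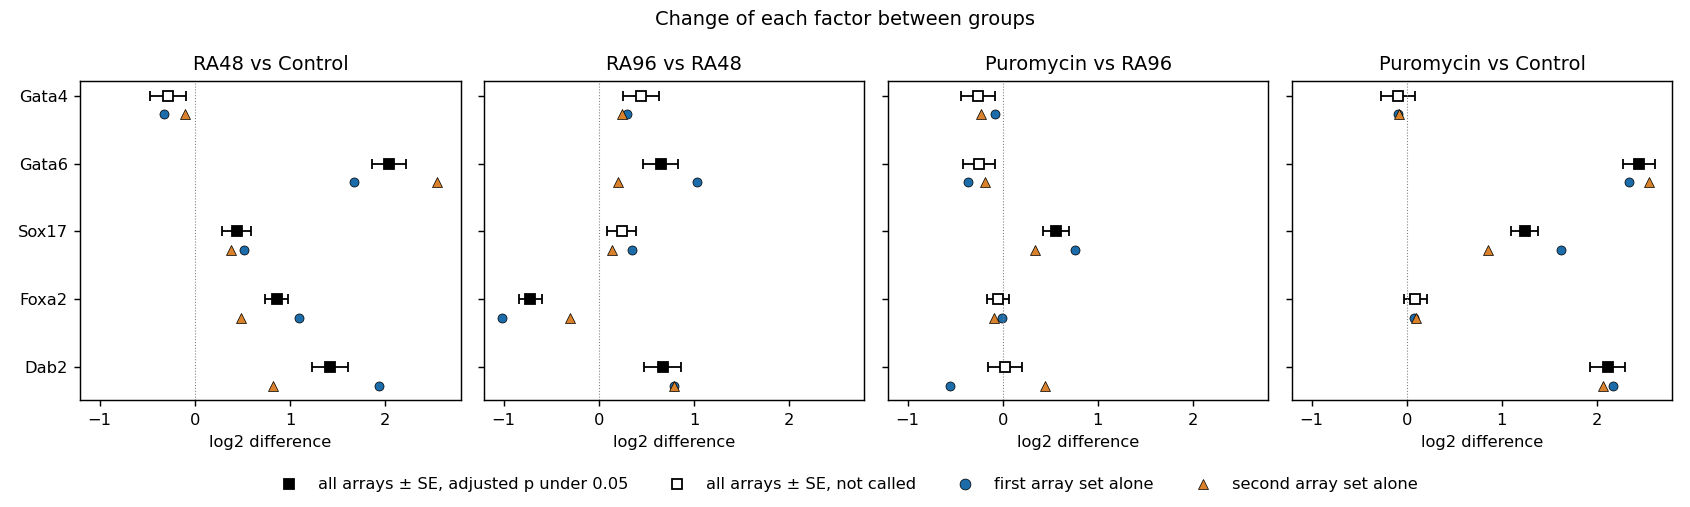
Log2 difference between groups (x axis) for each of the 5 genes (y axis) in 4 comparisons. Squares are the change over all arrays ± SE, filled where the adjusted p is under 0.05, and circles and triangles are the change within the first and second array set. Gata6 and Dab2 are up by 2.44 and 2.11 from Control to Puromycin, Sox17 by 1.24, and Foxa2 and Gata4 lie near 0.

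Promoter sequence was at hand for 2 of the 5 genes, Dab2 and Foxa2, from the RefSeq annotation of GRCm38.p6 as the 250 bases before each annotated start. GATA motifs were searched there because Gata6 rose, as AGATAA with T also allowed as the first base and G also allowed as the last, on both strands. Of 2 Dab2 windows 1 held a match, on the plus strand at chr15:6299539-6299788, and of 3 Foxa2 windows 1 did, on the minus strand at chr2:148045465-148045714. Both are shown 5′ to 3′ with the match in capitals, since they let a reader see where it lies: its first base is 179 bases before the start in Dab2 and 183 in Foxa2.
Dab2 promoter window: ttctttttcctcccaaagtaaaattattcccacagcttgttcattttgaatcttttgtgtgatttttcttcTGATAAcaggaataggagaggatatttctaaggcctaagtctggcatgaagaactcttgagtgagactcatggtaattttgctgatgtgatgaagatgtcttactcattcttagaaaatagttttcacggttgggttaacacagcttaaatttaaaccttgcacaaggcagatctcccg
Foxa2 promoter window: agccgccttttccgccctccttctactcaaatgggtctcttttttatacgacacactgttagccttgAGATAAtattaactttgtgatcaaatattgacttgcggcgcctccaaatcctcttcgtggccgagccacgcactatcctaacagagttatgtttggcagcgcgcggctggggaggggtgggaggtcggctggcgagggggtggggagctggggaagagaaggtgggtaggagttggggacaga
A GATA match is common, as 26.5% of 32851 promoter windows of this length held one. Retinoic acid receptor half-sites (AGGTCA, with G also allowed as the first base, in 23.8% of windows) and forkhead motifs (TGTTTAC, with A also allowed as the second base, in 5.76%), searched on both strands, had no match in the 5 windows. A match is a description of letters, not a binding site, and binding was not measured here.

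A call for one gene and not for another does not show that they differ, so the per-array difference between Gata6 and each other member was compared between groups with a two-sided exact permutation test, adjusted over 20 tests. From Control to RA48, Gata6 rose more than Gata4 by 2.32 ± 0.26 (SE, adjusted p = 0.00481), more than Sox17 by 1.60 ± 0.27 (0.00481) and more than Foxa2 by 1.17 ± 0.37 (0.0197). For Gata4 and Sox17 no array of one group overlapped the other in that difference, and the unadjusted p of 0.00216 is the smallest these tests can give. Gata6 minus Dab2 changed by 0.61 ± 0.40 (exact permutation test, adjusted p = 0.216), with an interval of 2 SE from -0.18 to 1.40. The array sets differed widely in these values: they were 1.15 and 2.16 for Sox17, 0.56 and 2.05 for Foxa2, and -0.27 and 1.72 for Dab2, where the sign turned. With labels permuted only within sets, the exact permutation test gave adjusted p = 0.0111 for Gata4 and Sox17, 0.02 for Foxa2 and 0.237 for Dab2. From Control to Puromycin the difference of changes was 2.53 ± 0.23 against Gata4, 2.35 ± 0.17 against Foxa2 and 1.20 ± 0.21 against Sox17 (exact permutation tests, adjusted p = 0.00481 for each), with 0.71 and 1.69 against Sox17 in the sets. Against Dab2 it was 0.32 ± 0.29 (adjusted p = 0.382, interval -0.27 to 0.91), with 0.16 and 0.49 in the sets. From RA96 to Puromycin Sox17 gained on Gata6 by 0.81 ± 0.15, with Gata6 minus Sox17 at 2.39 in Puromycin and 3.20 in RA96 (exact permutation test, adjusted p = 0.00481), a change of -1.12 in the first set and -0.53 in the second. From RA48 to RA96 Gata6 gained 1.37 ± 0.36 on Foxa2 (exact permutation test, adjusted p = 0.013), 2.04 in the first set and 0.50 in the second.

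These differences depended on which Gata6 probe was used, and the cause was not tested. In RA48 versus Control, probe 11678 in place of the mean lost the call against Gata4 (1.40, exact permutation test, adjusted p = 0.125), Sox17 (0.69, 0.479) and Foxa2 (0.26, 0.779), and probe 15983 lost it against Foxa2 (0.29, 0.0666). With probe 2646, Gata6 exceeded Dab2 in RA48 by 2.41 and in Puromycin by 1.87 (exact permutation tests, adjusted p = 0.00333 for both). With probe 15983 the sign turned, to -0.27 (adjusted p = 0.344) and -1.04 (0.013). Probe 15983 also put the Puromycin rise of Gata6 level with that of Sox17 (difference -0.17, exact permutation test, adjusted p = 0.397). The difference from Gata4 and Foxa2 in Puromycin versus Control kept its direction and its call with each of the 3 Gata6 probes. Gata4 entered these tests as the mean of its 2 probes, whose changes went opposite ways there, and its single probes were not tried.

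The members were then set beside lists of genes of the same lineages and functions, 270 genes in 11 lists of which 159 were on the array. They were written from general knowledge, but with earlier results of these data known. Their shares are thus a description and not an independent comparison. Shares are given beside those of all 8683 genes, of which 18.0% were called higher and 16.4% lower in RA48 versus Control, with a median change of -0.02, and 24.6% and 28.6% in Puromycin versus Control. Apart from the 5 genes themselves, 25 genes of primitive and parietal endoderm were measured, and 19 of them (76%) rose and 1 (4%) fell from Control to RA48, with a median change of 0.92. Averaged over these 25, the log2 ratio was -1.61 to -0.98 on Control arrays and -0.04 to 0.04 on RA48 arrays. The largest rises were those of Krt8 (5.05 ± 0.15), a keratin of simple epithelia, Lgals3 (4.06 ± 0.22), a galactose-binding lectin, and Krt18 (2.75 ± 0.33), the keratin that pairs with Krt8. Fst, an activin antagonist, fell by 1.00 ± 0.14. In Puromycin versus Control 18 rose and 4 fell, with Nid1 (5.11 ± 0.17), a basement membrane linker, Krt8 (5.03 ± 0.14) and Col4a2 (3.34 ± 0.15), a basement membrane collagen chain, up the most. Fxyd3, an ion pump regulator, fell by 2.23 ± 0.29, Stra6, a vitamin A transporter, by 0.71 ± 0.17 and Fst by 0.50 ± 0.13. None of the 25 stands in another list, but basement membrane genes are also made by muscle and connective tissue cells, so these counts are not particular to endoderm.

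In the later steps, genes of that list went both ways, 9 up and 4 down from RA48 to RA96, where 10.8% and 11.6% of all genes were, and 4 up and 5 down from RA96 to Puromycin, where 4.70% and 3.12% were. From RA48 to RA96, Nid1 rose by 1.65 ± 0.18, Col4a1, the partner chain of Col4a2, by 1.52 ± 0.20 and Nid2, a related nidogen, by 1.24 ± 0.17. Stra6 (-1.38 ± 0.17), Fxyd3 (-1.25 ± 0.30) and Cited1 (-1.16 ± 0.15), a transcriptional cofactor, fell. From RA96 to Puromycin, Nid1 (0.89 ± 0.17), Col4a2 (0.77 ± 0.15) and Cd44 (0.60 ± 0.13), a hyaluronan receptor, rose further. Stra6 (-1.31 ± 0.17), Lgals3 (-1.21 ± 0.21) and Lama1 (-1.11 ± 0.18), the laminin chain of early embryonic basement membranes, fell. The fall of Lgals3 was -0.70 in the first array set, where it was not called (adjusted p = 0.206), and -1.64 in the second. Lama1 was thus back at 0.22 in Puromycin against 0.28 in Control after 1.95 in RA48.

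**Figure D4:**
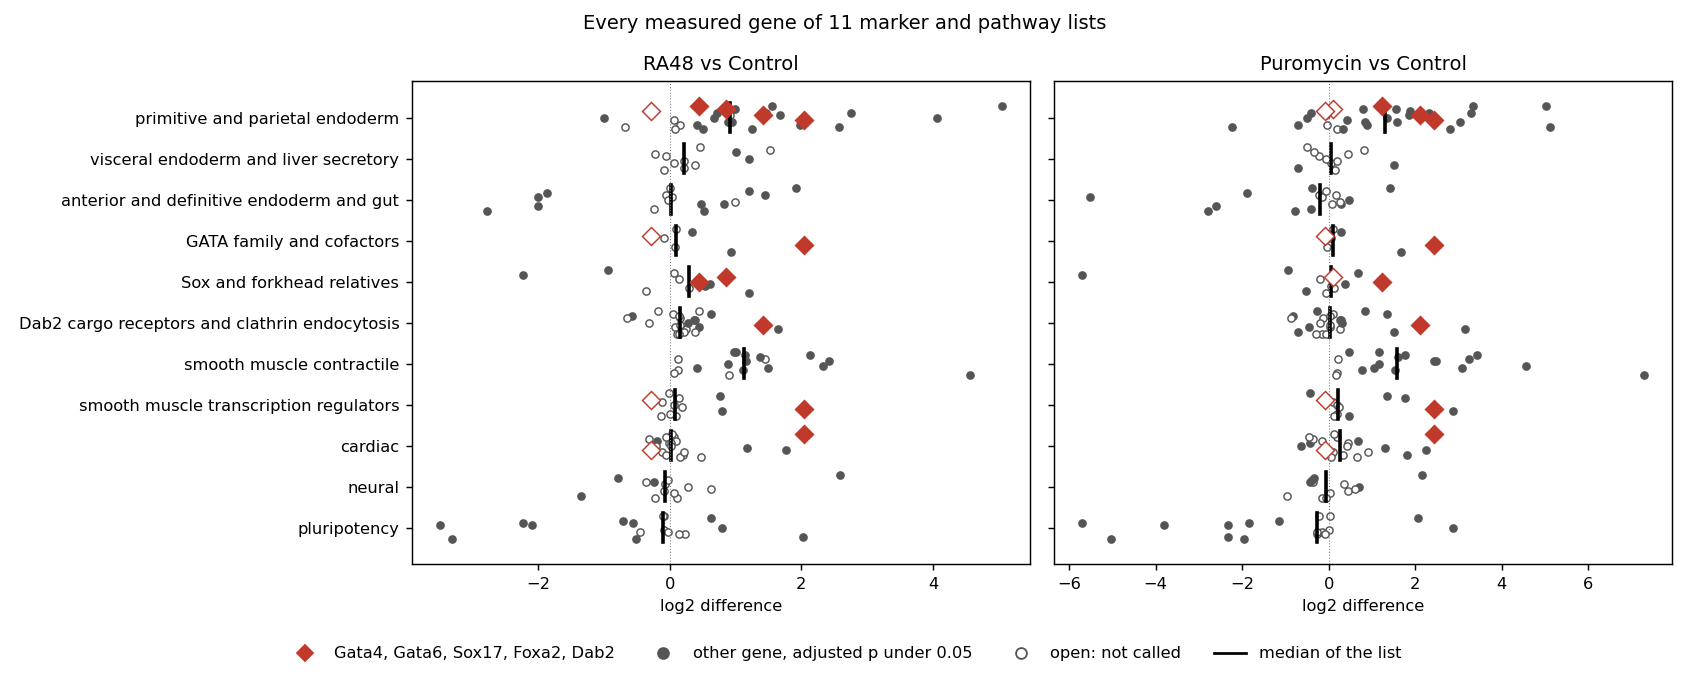
Log2 difference (x axis) of every measured gene of 11 lists (y axis) in RA48 versus Control and Puromycin versus Control, with diamonds for the 5 endoderm factors, circles for other genes, filled where the adjusted p is under 0.05, and a bar at each list's median. The lists of primitive and parietal endoderm and of smooth muscle contractile genes have medians of 0.92 and 1.13 in RA48 versus Control, and the visceral endoderm and anterior endoderm lists 0.22 and 0.02.

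Of 34 listed secretory genes of visceral endoderm and liver 11 were measured. From Control to RA48 2 (18.2%) rose, a share near the 18.0% of all genes, and none fell, with a median change of 0.22. Those 2 were Foxa1, a forkhead factor related to Foxa2 (1.21 ± 0.16), and S100g, a calcium-binding protein gene (1.01 ± 0.32). With the array set as a block 4 were called higher. Averaged over the 11 genes, the log2 ratio ran from -2.32 to -1.30 on Control, -1.68 to -0.85 on RA48, -2.14 to -1.12 on RA96 and -2.21 to -1.07 on Puromycin arrays. Alb changed by -0.09 in RA48 and by 0.15 in Puromycin (adjusted p = 0.951 and 0.89), at values far below the embryo pool on every array. In Puromycin versus Control 1 rose, Cubn, the intrinsic factor receptor cubilin (1.50 ± 0.22), and 1 fell, Lrp2, the megalin receptor (-0.71 ± 0.27). Afp and Ttr, the usual visceral endoderm markers, were not analysed here.

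Genes of anterior and definitive endoderm and gut went both ways. From Control to RA48, 6 of 16 rose (37.5%) and 4 fell (25%), with a median change of 0.02. The largest rises were those of Dkk1, a Wnt inhibitor (1.92 ± 0.33), Prox1, a homeobox factor of liver and lymphatic cells (1.45 ± 0.23), and Foxa1 (1.21 ± 0.16). Otx2, a homeobox factor of anterior endoderm and neural tissue, fell by 2.77 ± 0.08, and Epcam, an epithelial adhesion molecule, by 2.00 ± 0.26. Trh, which encodes a hypothalamic releasing hormone, also fell by 2.00 ± 0.31. None of the 16 was called higher in RA96 than in RA48 (1 with the array set as a block) and 6 fell, among them Trh (-3.13 ± 0.31), Dkk1 (-1.13 ± 0.33) and Foxa1 (-0.86 ± 0.16). In Puromycin versus Control 3 rose and 7 fell (43.8%), with Trh at -5.53 ± 0.30, Otx2 at -2.80 ± 0.08 and Epcam at -2.60 ± 0.25. Cdh1, the epithelial cadherin gene, and Cldn6, a claudin of embryonic epithelia, were the 2 that fell from RA96 to Puromycin, by 0.94 ± 0.14 and 0.38 ± 0.09. The fall of Cldn6 was not called in the second array set (-0.57 and -0.25, adjusted p = 0.102).

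**Figure D5:**
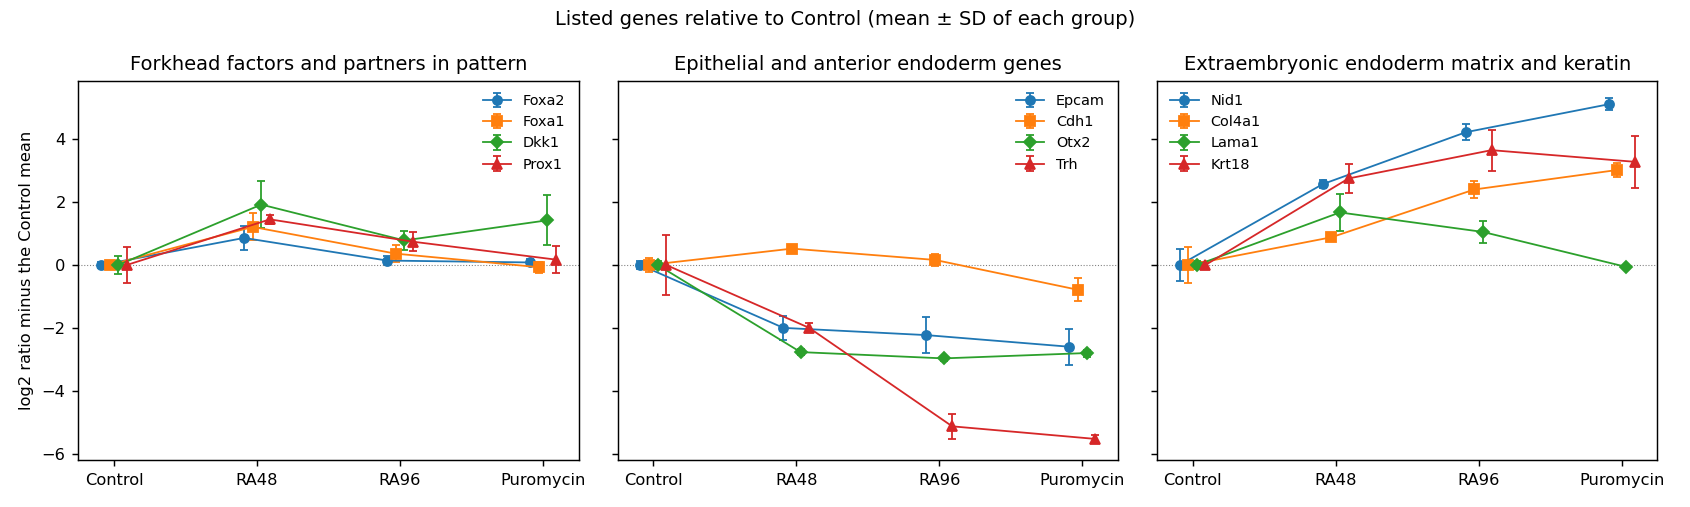
Mean log2 ratio minus the Control mean (y axis, ± SD over 5 or 6 arrays) in the 4 groups (x axis) for Foxa2 with Foxa1, Dkk1 and Prox1, for 4 epithelial and anterior endoderm genes, and for 4 extraembryonic endoderm matrix and keratin genes. Foxa2 and Foxa1 peak in RA48, Otx2 and Trh fall by 2.77 and 2.00 to RA48, and Nid1 climbs to 5.11 in Puromycin.

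In the GATA family and its cofactors, apart from Gata4 and Gata6, 2 of 5 measured genes (40%) rose from Control to RA48, against 18.0% of all genes. They were Gata3, a GATA factor of trophoblast and T cells (0.93 ± 0.16), and Ldb1, an adaptor of GATA complexes (0.34 ± 0.07). Gata3 went on to 1.68 ± 0.15 above Control in Puromycin (adjusted p = 5.14e-09), so it shared the direction of Gata6 in both comparisons. Among Sox and forkhead relatives, apart from Sox17 and Foxa2, 3 of 9 rose (33.3%) and 2 fell (22.2%) from Control to RA48, against 18.0% and 16.4% of all genes. Foxa1 rose by 1.21 ± 0.16 to RA48 and fell by 0.86 ± 0.16 to RA96, and Puromycin minus Control was -0.07 ± 0.15 (adjusted p = 0.723). RA96 minus Control was 0.36 for Foxa1 (adjusted p = 0.0557; 0.42 with the array set as a block, 0.00207) and 0.14 for Foxa2 (0.347; 0.17, 0.171 with the block). Sox4, a factor of many progenitor cells, rose by 0.61 ± 0.12, Sox2, a factor of pluripotent and neural cells, fell by 2.23 ± 0.51 and Foxo1, an insulin-responsive forkhead factor, by 0.94 ± 0.09.

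Of the receptors and endocytic proteins that work with Dab2, 5 of the other 22 measured (22.7%) rose and 1 fell from Control to RA48, a share near that of all genes. With the array set as a block 10 of all 23 rose, Dab2 included, and 3 fell, against 6 and 1 without it. Itgb1, the integrin beta1 cargo of Dab2, rose by 1.65 ± 0.28 to RA48 and was 3.15 ± 0.26 above Control in Puromycin. Cltb, a clathrin light chain, rose by 0.63 ± 0.18 (0.51 in the second array set, where it was not called, adjusted p = 0.0896), and Dab1, the neuronal relative of Dab2, fell by 0.58 ± 0.12. Cubn and Lrp2, the endocytic receptors of visceral endoderm, ended 1.50 above and 0.71 below Control.

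Smooth muscle genes bear on Gata6, which is expressed in that lineage too. Of 18 measured contractile genes 13 (72.2%) rose and none fell from Control to RA48, with a median change of 1.13, and 15 rose in Puromycin versus Control. Acta2 rose by 4.56 ± 0.22 to RA48, Csrp1, a LIM protein gene, by 2.42 ± 0.30 and Myl9, a myosin light chain gene, by 2.33 ± 0.23. Averaged over these 18, the log2 ratio was -2.31 to -1.09 on Control and -0.58 to 0.02 on RA48 arrays, so it moved in the same comparison as the primitive and parietal endoderm list. The part of one in the other was not tested. Among smooth muscle transcription regulators, apart from Gata4 and Gata6, 2 of 10 rose to RA48 (20%, near the 18.0% of all genes). They were Klf4 (0.79 ± 0.21) and Klf5 (0.77 ± 0.13), both zinc finger factors. Klf4 was 1.02 in the first array set and 0.59 in the second, where it was not called (adjusted p = 0.122). Prrx1, a mesenchymal homeobox factor, rose by 1.25 ± 0.28 from RA48 to RA96. In the cardiac list, apart from Gata4 and Gata6, 2 of 18 rose to RA48 (11.1%, under the 18.0% of all genes) and 1 fell. The 2 that rose were Nppb, a natriuretic peptide gene (1.76 ± 0.33), and Myl7, an atrial myosin light chain gene (1.17 ± 0.14). The 1 that fell was Bmp10 (-0.20 ± 0.07), which was not called in the second array set (limma adjusted p = 0.124). For the neural list the counts were 1 higher (7.69%) and 3 lower (23.1%) of 13, and for pluripotency 3 higher (17.6%) and 7 lower (41.2%) of 17. Of the neural list, Gap43, a growth cone protein gene, was up by 2.58 ± 0.21, while Neurod1, Nefl and Stmn2 fell. Of the pluripotency list, Lefty1, Klf4 and Klf2 rose. The largest falls there were those of Utf1, a factor of undifferentiated cells (-3.49 ± 0.13), Dnmt3b and Sox2.

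The genes whose course was most like that of each member were ranked by Pearson r over the 23 arrays after each array set was centred on its own mean. These points share the 4 groups and the common reference, so r is high for any gene with a like course, and it is a description only. For Gata6 they were Anxa3, an annexin (r = 0.961), Lgals1, a galectin abundant in smooth muscle and mesenchyme (0.96), Reep5 (0.958) and Cfl2, the muscle cofilin (0.956). For Dab2 they were Irak2 (0.983), Prnp, the prion protein gene (0.978), Akap2 (0.976) and Chst12 (0.974). For Sox17 they were Klf2 (0.953) and Klf4 (0.941), which are Krüppel-like factors, Rin1 (0.934) and Serpinb6a (0.929). For Foxa2 they were Ski, a repressor of TGF-beta signalling (0.963), Plxna2, a semaphorin receptor (0.949), Ctdspl (0.945) and Arhgap31 (0.945). The mean log2 ratio of Lgals1 went from -2.93 in Control to 1.03 in RA48, that of Ski from -0.18 to 0.857 and back to -0.0675 in RA96, and that of Klf4 from -3.27 in Control to -0.40 in Puromycin.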

How the data were processed

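A404 RNA was hybridised to 23 2-colour Agilent arrays. The authors deposited 1 log10 ratio per probe and array, taken with Agilent Feature Extraction A.6.1.1 on a G2565AA scanner, per the labels. Base, centring and direction of the ratio are not stated in the sources used here. The values were read as log10 of red (A404) over green (embryo) and divided by log10 of 2, so a fold holds only under that reading. Background and intensity were not used, so no detection limit can be given, and the number of arrays limits the precision. Of 21446 rows, 1166 (5.44%) that looked like control spots were left out. The other 20280 probes were averaged by symbol where they had 1, giving 17863 rows with 8683 genes. No further normalization was applied.

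Group means were fitted over all arrays with limma 3.58.1 (lmFit, eBayes) in R 4.3.3, with Benjamini-Hochberg adjustment over all rows, after the code was tested on simulated data. Array sets are the sign of the first principal component of deviations from group means. They were found in these data, largely follow the replicate number and are not a batch that the labels name. Calls and counts with the set as a block are thus favoured by how the sets were made. Differences between Gata6 and another member were tested by exact permutation over arrays (Python 3.11.15, numpy 2.4.6). Genes named are the 5 members, Acta2 and Alb, up to 3 called genes in each direction per list and comparison, and the 4 genes most correlated with each member that passed the F test. The members, lists and this rule were chosen with earlier results of these data known. Alternatives were array centring, quantile normalization, single probes, fewer arrays, replicate number or array set as a block, either set alone, control-like rows kept, other variance models and array weights.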

Additional observations from a re-analysis of the deposited data

Results flagged for a closer look

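In 44 groups of 5 or 6 arrays, 2 values lay far from the rest of their group, and chance flags about 1 in 20 groups. The Gata6 mean in RA96 replicate 4 was 1.85, against 2.39 to 2.61 on the other RA96 arrays. Sox17 in RA48 replicate 2 was -1.45, against -1.0 to -0.92 on the other RA48 arrays.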

How the results depend on the processing

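Gata6 and Dab2 in the 3 treated groups against Control, Sox17 in RA96 and Puromycin against Control, and Foxa2 in RA48 against Control kept direction and call under the alternatives run, except Gata6 in RA48 on probe 11678 alone (1.12). The results below depended on the setting, and the cause was not tested. Scale and direction of the deposited ratios are not stated, which limits every fold.

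For Gata4, RA48 minus Control was -0.22 with a set block, -0.32 in the first set, -0.61 with array weights (called in these 3) and 0.13 on probe 2228. RA96 minus RA48 was called at 0.30 with the set block and in the first set, 0.46 after quantile normalization and 0.80 with weights. RA96 minus Control was -0.02 in the first set, 0.41 on probe 2228 (called) and -0.08 on probe 11500, and Puromycin minus Control 0.34 on probe 2228. The limma F test of Gata4 gave adjusted p = 0.00749 with the set block, 0.0202 in the first set and 6.19e-05 with weights. For Sox17, RA48 minus Control lost its call after quantile normalization (0.29), with weights (0.36) and in the second set (0.38), and Puromycin minus RA96 in the second set (0.34) and with only those groups fitted (0.56). Gata6 in RA96 versus RA48 lost it in the second set (0.20), with only those groups (0.65) and on probe 2646 (0.31), and was -0.01 on probe 15983. Foxa2 in RA96 versus RA48 lost it in the second set (-0.30), and Foxa2 in Puromycin versus Control was -0.05 after quantile normalization. Dab2 in Puromycin versus RA96 was -0.55 in the first set.

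Rows called numbered 4642 in RA48 versus Control, against 7029 with the set block and 8135 with weights. In RA96 versus RA48 they numbered 3540, against 5726 (set block), 6697 (first set), 2267 (second set) and 10273 (weights). In Puromycin versus RA96 they numbered 942, against 2281, 1691, 1638 and 2609 in the same order.

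Gata6 minus another member in the first set and then the second was, in RA48 versus Control, 1.15 and 2.16 for Sox17, 0.56 and 2.05 for Foxa2 and -0.27 and 1.72 for Dab2. In RA96 versus RA48 it was 2.04 and 0.50 for Foxa2, 0.73 in the first set for Gata4 and -0.59 in the second for Dab2. In Puromycin versus RA96 it was -1.12 and -0.53 for Sox17 and 0.19 and -0.64 for Dab2. In RA96 versus Control it was -0.03 and 1.12 for Dab2, and in Puromycin versus Control 0.71 and 1.69 for Sox17. On single Gata6 probes, added after seeing the data, probe 2646 gave 2.41, 2.05, 1.87 and -0.36 for Dab2 (RA48, RA96 and Puromycin versus Control, and RA96 versus RA48) and -0.13 for Gata4 in RA96 versus RA48. Probe 11678 gave 1.40 for Gata4, 0.69 for Sox17 and 0.26 for Foxa2 (calls lost) and -0.30 for Dab2 in RA48 versus Control. It gave 2.37 for Foxa2 (call lost) and 0.97 for Dab2 in RA96 versus RA48, -0.26 for Gata4 in Puromycin versus RA96 and 1.01 for Sox17 in Puromycin versus Control (call lost). Probe 15983 gave 0.29 for Foxa2 (call lost) and -0.27 for Dab2 in RA48 versus Control, and -0.45 for Gata4, -0.25 for Sox17 and -0.68 for Dab2 in RA96 versus RA48. It gave -0.95 for Dab2 in RA96 versus Control, and -0.17 for Sox17 and -1.04 for Dab2 in Puromycin versus Control.

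With the replicate number as a block, Sox17 in RA48 versus Control was 0.42 (limma adjusted p = 0.0538), Gata4 in RA96 versus RA48 was 0.40 (called), the Gata4 F test gave 0.0192 and 1784 rows were called in Puromycin versus RA96. It changed no other member's call. The numbers were not taken to pair the arrays: 30 of 33 same-number pairs correlated over 0.1, from -0.455 to 0.675, and 4 of 23 arrays correlated best with their own number.

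Leaving out each array in turn gave 0.37 to 0.53 for Sox17 in RA48 versus Control, 0.49 to 0.65 for Sox17 in Puromycin versus RA96, 0.50 to 0.81 for Gata6 and 0.36 to 0.58 for Gata4 in RA96 versus RA48 (Gata4 called without RA48 replicate 4), and -0.04 to 0.10 for Dab2 in Puromycin versus RA96. Rows called in RA96 versus RA48 ran from 2227 to 4198. Gata6 minus Dab2 in RA96 versus RA48 ran from -0.24 to 0.18, Gata6 minus Sox17 there from 0.22 to 0.55, and Gata6 minus Gata4 and minus Foxa2 in Puromycin versus RA96 from -0.12 to 0.14 and -0.33 to -0.14.

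List counts, members included, also grew with the set block. In RA48 versus Control the primitive and parietal list went from 1 to 3 lower, the visceral list from 2 to 4 higher, the GATA family from 0 to 1 lower, the Dab2 partners from 6 to 10 higher and 1 to 3 lower, the cardiac list from 3 to 5 higher and the neural list from 1 to 2 higher. In Puromycin versus RA96 the primitive and parietal list went from 5 to 8 higher and the anterior list from 2 to 4 lower. In Puromycin versus Control the visceral list went from 1 to 2 in each direction. Of 122 changes of list genes that the naming rule selects in 4 comparisons, 24 lost their call in 1 or both array sets, none turned sign between sets, and 37 others kept the call with set values over 1.5 times apart.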
